A study of Homo sapiens with 4 samples.

Results

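The genes described here encode the enzymes of cholesterol synthesis and the proteins that control it through sterol regulatory element binding proteins (SREBPs). They are 26 genes, taken by gene name from a table of 59384 gene names, and all 26 were found. RNA was sequenced from Daoy, a human medulloblastoma cell line long in laboratory use. The pLKO group (2 libraries) was labelled WT and infected with the PLKO control lentivirus, and the shFABP4 group (2 libraries) was labelled FABP4 knockdown and infected with a lentivirus carrying a hairpin against FABP4, a fatty acid binding protein. The labels give neither the number of hairpins nor any selection of infected cells. They also do not name separate cultures, so each p-value reflects differences between libraries that may be technical. The comparison asks which of these transcripts differ once FABP4 is targeted.

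Cholesterol is built from acetyl-CoA in the cytosol and endoplasmic reticulum. Acetyl units are joined and reduced to mevalonate, phosphorylated and decarboxylated to isoprene units, condensed to farnesyl diphosphate and squalene, closed to lanosterol, and then trimmed and reduced to cholesterol. SREBP2, the product of SREBF2, is the main activator of these genes. SCAP carries SREBPs from the endoplasmic reticulum to the Golgi, where they are cleaved, and INSIG proteins hold SCAP back when sterols are plentiful. Dividing tumour cells need sterols for new membrane and farnesyl and geranylgeranyl groups for small GTPases.

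The library labelled shFABP4 1 stood apart from the other 3, so fold changes are given with all 4 libraries and without it. Depth was 8988961 and 13839885 counted fragments for pLKO, 2539862 for shFABP4 1 and 20431660 for shFABP4 2. Olfactory receptor genes, which such cells are not known for expressing, carried 6.55 fragments per kb of exon in shFABP4 1 and 0.213 to 0.355 in the others. From coding genes that had no fragment outside shFABP4 1, a rate of background per kb was estimated for that library, which put 54.9% of its fragments down to background. Of FABP4 itself, pLKO held 1 and 6 fragments, the library labelled shFABP4 1 held 14 (4.71 expected from background) and the one labelled shFABP4 2 held 0. With so few fragments in pLKO, these counts do not check the label of either shFABP4 library, and the names used below are those of the labels. Of 8 neural lineage markers, VIM was abundant (1536 and 1552 CPM in pLKO, where CPM are counts scaled to a library total of 1000000), while OTX2 and ATOH1 were at 0 in both pLKO libraries. In shFABP4 2, on which every call below rests, VIM was at 6412 CPM, GLI2 at 9.15 (1.89 and 1.66 in pLKO), SOX9 at 12.2 (4.67 and 4.77), NES at 8.81 (3.89 and 4.99) and SYP at 1.52 (2.22 and 4.48), with OTX2, ATOH1 and SOX2 at 0. The part of this shift in markers in the member values was not tested. Of 8 markers of blood, liver, fat, endothelial and epithelial cells, none exceeded 10 fragments in a pLKO library.

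Upstream sequences of 4 members are shown because they carry the pattern described below: EBP and PMVK were low in both shFABP4 libraries, MSMO1 was higher in shFABP4 2, and SREBF2 encodes the activator itself. Each is the 250 bases before the RefSeq start (GRCh38.p14), 5′ to 3′ on the strand of the gene. Capitals mark CCAAT, the core of the NF-Y site, or TCACNCCAC, a sterol regulatory element, on either strand. EBP lies at chrX:48521558-48521807 (plus strand), PMVK at chr1:154936720-154936969 (minus), MSMO1 at chr4:165327419-165327668 (plus) and SREBF2 at chr22:41832855-41833104 (plus).
EBP: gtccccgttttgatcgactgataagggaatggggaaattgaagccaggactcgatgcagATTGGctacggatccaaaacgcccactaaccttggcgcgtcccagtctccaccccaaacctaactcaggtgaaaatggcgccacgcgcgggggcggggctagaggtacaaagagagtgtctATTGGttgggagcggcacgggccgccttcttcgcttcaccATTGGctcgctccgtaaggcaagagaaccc
PMVK: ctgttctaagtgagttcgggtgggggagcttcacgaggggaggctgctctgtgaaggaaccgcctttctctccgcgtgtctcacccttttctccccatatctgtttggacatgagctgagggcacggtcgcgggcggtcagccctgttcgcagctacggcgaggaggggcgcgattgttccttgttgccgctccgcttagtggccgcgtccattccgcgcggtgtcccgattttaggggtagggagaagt
MSMO1: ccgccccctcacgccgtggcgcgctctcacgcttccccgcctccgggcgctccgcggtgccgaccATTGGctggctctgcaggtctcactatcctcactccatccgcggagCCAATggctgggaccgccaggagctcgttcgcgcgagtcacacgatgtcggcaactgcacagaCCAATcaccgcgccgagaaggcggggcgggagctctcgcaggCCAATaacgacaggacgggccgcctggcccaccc
SREBF2: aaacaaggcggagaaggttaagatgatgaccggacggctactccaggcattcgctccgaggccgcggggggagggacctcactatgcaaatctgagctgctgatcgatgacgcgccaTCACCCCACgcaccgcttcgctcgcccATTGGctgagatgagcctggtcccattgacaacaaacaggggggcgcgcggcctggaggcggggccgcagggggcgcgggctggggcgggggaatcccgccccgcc

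The letters TCACNCCAC were found in the window of SREBF2 alone among the 23 members with an entry, 133 bases before its start, and in 1.19% of 15843 protein-coding genes. CCAAT (both strands, best of a gene's listed starts) was found in 17 of the 23 members (73.9%) and in 40.2% of protein-coding genes. PMVK had no match, EBP had 3 and MSMO1 had 4. The E-box CACGTG was found in 3 members (13.0%, against 9.73%). In the printed windows no 2 matches overlapped. CCAAT was present in 6 of the 6 members with an entry that rose in shFABP4 2 and in 8 of the 11 that fell. A match describes letters only, and RefSeq entries for ACAT2, FDFT1 and SQLE were not used here.

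The share of all counted fragments that fell on the members was 0.149% and 0.146% for pLKO, 0.125% for shFABP4 1 and 0.107% for shFABP4 2. Per length they spanned a wide range in pLKO. PMVK was highest at 195 ± 5.85 CPM per kb of exon (SD, n = 2), followed by EBP at 69.6 ± 3.89 and NSDHL at 59.8 ± 0.378. MVD (35.3 ± 0.218), DHCR7 (21.4 ± 0.467) and MVK (20.9 ± 0.533) came next, and their order beyond the spread was MVD above DHCR7 and MVK, while DHCR7 and MVK lay within about their joint spread. FDFT1 and SREBF1 were each near 19.3 and did not differ beyond their spread. At the low end HMGCS1, SQLE, ACAT2 and SC5D were between 0.540 and 1.09, and CYP51A1 was at 0.

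**Figure D1:**
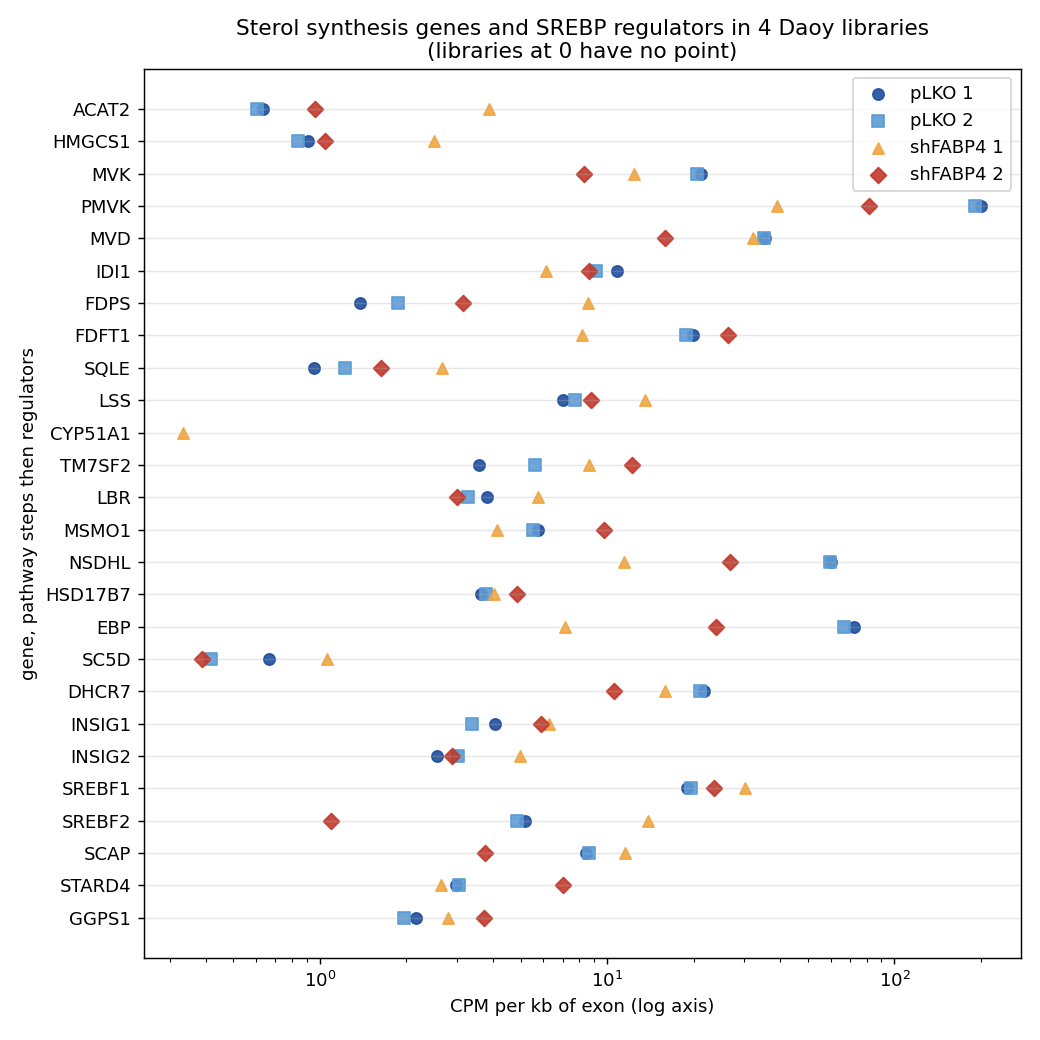
Level of each gene in each library, in CPM per kb of exon (log axis), in order of pathway steps and then regulators. Each point is 1 library. Both shFABP4 points lie left of both pLKO points for PMVK (81.3 and 38.9 against 200 and 191), NSDHL and EBP, and CYP51A1 has a point in shFABP4 1 only.

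Exons shared between genes limit some of these levels. Fragments over exons of more than 1 gene name go to neither under the recorded counting options. For CYP51A1, the lanosterol demethylase (chromosome 7, 92112153 to 92134803, minus strand, GRCh38), 84.5% of its 3529 exon bases were shared with other gene names, chiefly CTB-161K23.4, which held 0 fragments in every library. CYP51A1 held 0, 0, 3 and 0 fragments (pLKO 1, pLKO 2, shFABP4 1, shFABP4 2), where a count of 0 allows up to 0.334, 0.217 and 0.147 CPM in the 3 libraries at 0, for counting error only. In shFABP4 1 the expected background was 16.7, computed over all 3529 exon bases. It may be far too high, as most of those bases are shared. CYP51A1 is therefore given no level and was not tested. HMGCS1 shared 37.7% of its exon bases, GGPS1 41.0%, EBP 36.4%, ACAT2 22.2%, FDPS 18.6% and IDI1 14.97%, and every other member shared under 8%. How much this lowered their levels was not tested.

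With all 4 libraries, 0 of 25 tested members passed an adjusted p of 0.05 in edgeR's quasi-likelihood test, as did 0% of 14735 genes. An unadjusted p under 0.05 was reached by 1 member, MVK, and by 1818 genes. DESeq2 called 0 members and 695 genes. The spread of the shFABP4 pair, which share a group but not a makeup, sets these tests: the coefficient of variation between replicates was 0.683 with all 4 libraries and 0.0434 for the pLKO pair. The median log2 fold change was -0.28 over the members and 0.34 over all genes tested. Both shFABP4 libraries lay below both pLKO libraries for 10 members (26.1% of all genes) and above for 3 (28.5% of all genes). These sides moved with the scaling, as the median log2 fold change of all genes did (1.30 with library totals and 2.23 with abundant-gene scaling). Scaled by genes abundant in pLKO, 3 members were below (5.14% of genes) and 14 above (63.3%), and with the expected background of shFABP4 1 also subtracted 3 were below (12.2%) and 14 above (46.3%).

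PMVK, NSDHL and EBP were below both pLKO libraries in both shFABP4 libraries under all 6 scalings tried (5.14% of genes were), and ACAT2 and FDPS above (19.4% of genes). The 6 scalings reuse the same counts, so they are not separate evidence, and grouping genes this way was chosen after the values were seen. PMVK, phosphomevalonate kinase (chromosome 1, 154924740 to 154936719, minus strand), held 1797 and 2652 fragments in pLKO against 99 (shFABP4 1) and 1665 (shFABP4 2). As plain CPM this was 200 and 192 against 39.0 and 81.5, with 16.4 of the 99 fragments expected from background. NSDHL, which removes a carboxyl group from the sterol ring system (chromosome X, 152830967 to 152869729, plus strand), held 1078 and 1645, then 58 (21.2 expected) and 1088. EBP, the sterol isomerase (chromosome X, 48521799 to 48528716, plus strand), held 1150 and 1636, then 32 (18.7 expected) and 864. All 3 were thus low in both shFABP4 libraries. The expected background was computed over the full exon length, shared bases included. It may therefore be too high where many bases are shared, as in EBP (36.4%). In the fit of all 4 libraries the log2 fold changes of the 3 were -2.16 (SE 0.87, PMVK), -2.09 (SE 0.85, NSDHL) and -2.55 (SE 0.9996, EBP), each with an adjusted p of 0.391 or 0.392 (edgeR). Their size depended on the scaling. In the same order they were -0.80, -0.79 and -1.42 with abundant-gene scaling, and -0.69, -0.89 and -1.72 with background also subtracted. ACAT2 (15 and 22, then 26 and 52 fragments) and FDPS (46 and 96, then 81 and 240) were high in both, on far fewer fragments. In shFABP4 1 ACAT2 had 18.9 fragments expected from background and FDPS 39.4. Their log2 fold changes with all 4 libraries were 1.10 (SE 0.76) and 1.07 (SE 0.55).

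For the other members the SE with all 4 libraries ranged from 0.43 (LBR) to 1.01 (SREBF2). The remaining enzymes with a negative log2 fold change were MVK at -1.68 (SE 0.54), DHCR7 at -1.37 (SE 0.55), MVD at -1.28 (SE 0.58), IDI1 at -0.95, FDFT1 at -0.56, LBR at -0.42, SC5D at -0.37, HSD17B7 at -0.28, MSMO1 at -0.12 and LSS at -0.08. Those with a positive one were TM7SF2 at 0.66, SQLE at 0.28, HMGCS1 at 0.25 and GGPS1 at 0.14. Among the regulators SCAP was at -0.97 (SE 0.51), SREBF2 at -0.40, INSIG2 at -0.20, SREBF1 at -0.16 and INSIG1 at 0.11, and the carrier STARD4 was at 0.27 (SE 0.83). None passed the test (edgeR).

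A comparison of genes within 1 library needs no scaling between libraries. The ratio of FDFT1 (squalene synthase) to EBP fragments was 0.808 and 0.826 for pLKO, 3.38 for shFABP4 1 and 3.23 for shFABP4 2. The ratio of FDFT1 to NSDHL went from 0.862 and 0.822 to 1.86 and 2.56, and that of FDFT1 to PMVK from 0.517 and 0.510 to 1.09 and 1.68. With background subtracted the shFABP4 1 ratios were 5.33, 1.92 and 0.856. The 5.33 may be too high, as the EBP background was computed over shared exon bases as well. In each of these pairs both shFABP4 libraries lay above both pLKO libraries, and the pairs were chosen after the values were seen. Of all member fragments, the 5 genes of the mevalonate steps took 34.4% and 34.1% in pLKO, then 23.8% and 20.5% in the shFABP4 libraries. The 5 regulators and STARD4 together took 19.4% and 20.1%, then 38.6% and 27.9%. With background subtracted these shares in shFABP4 1 were 26.1% and 40.6%. SREBF1 alone took 10.45% and 11.0%, then 19.8% and 18.1%. SREBF2 (2.62% and 2.51%, then 8.40% and 0.773%) and SCAP (3.55% and 3.73%, then 5.79% and 2.20%) fell in shFABP4 2. INSIG1 and INSIG2 took larger shares in both shFABP4 libraries, also with background subtracted in shFABP4 1 (1.66% and 1.90%). STARD4 took 1.13% and 1.18% in pLKO, then 1.195% (95% interval 0.847% to 1.64%) and 3.73%. With background subtracted its share in shFABP4 1 was 0.963%, below both pLKO libraries. A share also rises when other members fall.

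The library labelled shFABP4 1 limits what can be read for the other members. Background was expected to supply 1288 of its 3180 member fragments (40.5%). Counts were at least 3 times the expected background for 7 members (PMVK, MVD, IDI1, LBR, MSMO1, INSIG2 and SREBF1), between 1.5 and 3 times for 12, and under 1.5 times for 7 (ACAT2, HMGCS1, SQLE, CYP51A1, TM7SF2, SC5D and GGPS1). The expected values take all exon bases, also those shared with other gene names, where fragments go to neither gene. They may therefore be too high for members such as CYP51A1, GGPS1, HMGCS1 and ACAT2. These shared 84.5%, 41.0%, 37.7% and 22.2% of their exon bases. The 1288 and the class under 1.5 times may be too large for that reason. The part of this background in the values of shFABP4 1 was not tested otherwise than by subtraction.

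**Figure D2:**
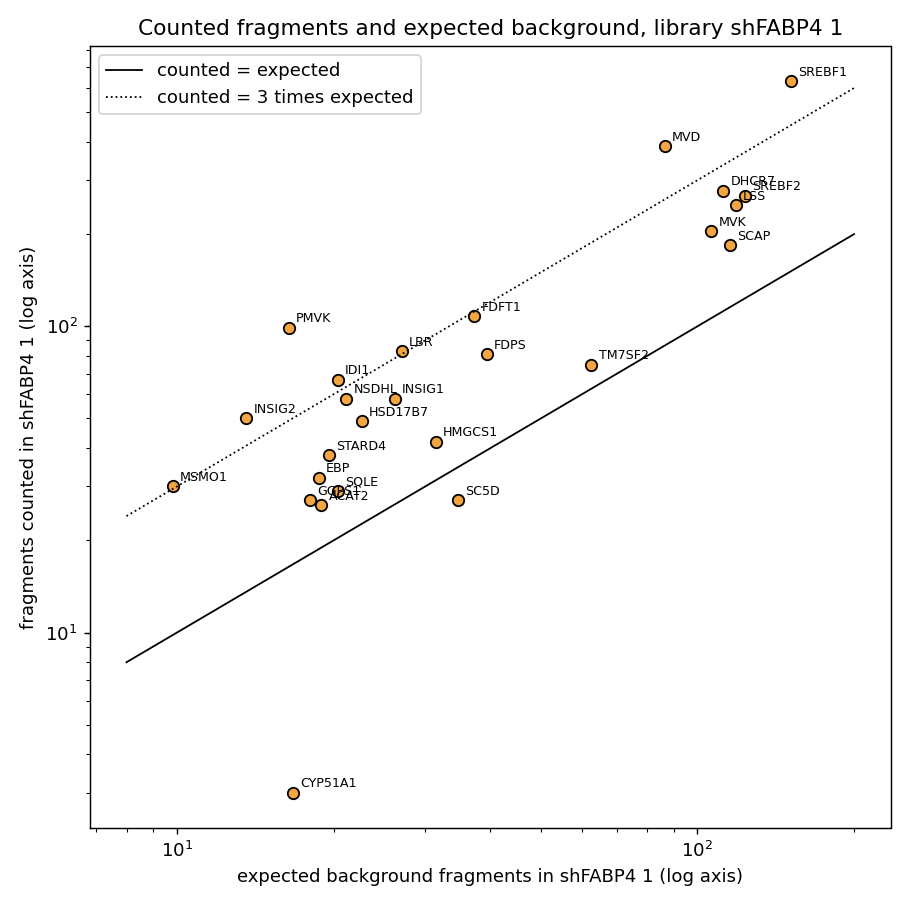
Fragments counted in the library labelled shFABP4 1 (vertical, log axis) against the background expected from each gene's exon length and GC content (horizontal, log axis), 1 point per gene. The solid line marks equality and the dotted line 3 times the expected value. PMVK (99 against 16.4) and SREBF1 (630 against 151) lie above the dotted line, while SC5D (27 against 34.6) and CYP51A1 (3 against 16.7) lie below the solid line. Exon length includes bases shared with other gene names (84.5% for CYP51A1), so the expected value may be too high for such genes.

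Without shFABP4 1, the comparison is of shFABP4 2 with the pLKO pair. In it 11 of 25 members fell and 7 rose at an adjusted p under 0.05 (edgeR), and 7 did not pass. Of all 15301 genes tested 32.7% fell and 34.2% rose, so being called is common. The split of the member calls moved with scaling. With library totals 9 fell and 11 rose (26.5% and 42.9% of all genes), and with abundant-gene scaling 8 fell and 13 rose (19.4% and 52.4% of all genes). These scalings moved the median log2 fold change of all genes from 0.04 to 0.28 and 0.57. DESeq2 called 9 members lower and 1, STARD4, higher (22.9% and 17.2% of all genes), and did not call FDPS, GGPS1, FDFT1, TM7SF2, MSMO1, INSIG1, LBR or SC5D. The spread comes from the pLKO pair alone, shFABP4 2 is assumed to vary as little, and the p-values compare these libraries. The values below are normalised CPM (CPM with library totals scaled by TMM), as mean ± SD of pLKO (n = 2) and the value of shFABP4 2.

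Of the mevalonate steps the 3 that follow the making of mevalonate fell together. MVK, mevalonate kinase, held 1241 and 1843 fragments (pLKO), then 204 and 1102 (shFABP4 1 and 2), the order used for counts below. It was at 143.8 ± 3.22 in pLKO and 48.3 in shFABP4 2 (log2 fold change -1.57, SE 0.06, adjusted p = 1.56e-36, edgeR). PMVK went from 207.5 ± 5.57 to 72.9 (-1.51, SE 0.05, adjusted p = 9.86e-41). MVD, which decarboxylates to isopentenyl diphosphate, held 1503 and 2294, then 387 and 1532 fragments, and went from 176.5 ± 0.537 to 67.1 (-1.40, SE 0.05, adjusted p = 6.27e-37). In shFABP4 1, MVK and MVD lay below pLKO with TMM but not when scaled by abundant genes (MVK 201 against 107 and 104, MVD 381 against 130 and 129). The first steps did not pass. ACAT2, the cytosolic acetoacetyl-CoA thiolase, was at 0.40 (SE 0.39, adjusted p = 0.361), and HMGCS1, which makes hydroxymethylglutaryl-CoA, at 0.02 (SE 0.22, adjusted p = 0.949, edgeR). HMGCS1 held 54 and 77, then 42 and 141 fragments, so its SE is wide.

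The prenyl steps went in both directions. IDI1, which isomerises isopentenyl diphosphate, held 416 and 542, then 67 and 756 fragments, and fell by 0.44 on the log2 scale in shFABP4 2 (SE 0.09, adjusted p = 1.80e-05). That direction turned (0.09) when libraries were scaled by abundant genes. FDPS, farnesyl diphosphate synthase, rose from 6.39 ± 1.38 to 10.5 (log2 fold change 0.68, SE 0.20, adjusted p = 0.00169). Its pLKO libraries differed among themselves, at 1.38 and 1.87 CPM per kb. The 8 listed FDPS pseudogenes held at most 6 fragments in any library. GGPS1, which makes geranylgeranyl diphosphate, held 74 and 103, then 27 and 291 fragments, and rose by 0.63 (SE 0.17, adjusted p = 0.00115, edgeR).

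Of the squalene steps 1 of 3 passed. FDFT1, squalene synthase, held 929 and 1352, then 108 and 2789 fragments. It rose from 106.6 ± 3.91 to 122.1 normalised CPM (log2 fold change 0.20, SE 0.06, adjusted p = 0.00118, edgeR), a small rise that was lost once GC content and length were corrected for (0.10). SQLE, squalene monooxygenase, held 37 and 73, then 29 and 143 fragments (0.30, SE 0.23, adjusted p = 0.244). LSS, which closes squalene epoxide to lanosterol, held 458 and 776, then 249 and 1300 (-0.00, SE 0.07, adjusted p = 0.975).

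After lanosterol, 5 of 8 tested members fell and 2 rose. Among the member enzymes EBP had the largest fall, from 130.5 ± 6.88 to 37.8 normalised CPM (log2 fold change -1.78, SE 0.07, adjusted p = 2.45e-37, edgeR). NSDHL went from 126.6 ± 0.403 to 47.6 (-1.41, SE 0.06, adjusted p = 1.76e-32). DHCR7, the last reductase of the branch through dehydrocholesterol, held 1339 and 1999, then 277 and 1476 fragments, and went from 155.5 ± 2.90 to 64.6 (-1.27, SE 0.06, adjusted p = 6.62e-33). In shFABP4 1 DHCR7 lay below pLKO with TMM and above it when scaled by abundant genes. SC5D, the sterol desaturase before DHCR7, held 60 and 58, then 27 and 80 fragments and fell by 0.67 (SE 0.27, adjusted p = 0.0243). It no longer passed with DESeq2, library totals, abundant-gene scaling or no filter.

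TM7SF2 and LBR both encode sterol reductases of the same step, and LBR is also a protein of the inner nuclear membrane. TM7SF2 held 110 and 265, then 75 and 850 fragments and rose by 1.12 (SE 0.17, adjusted p = 9.11e-05). Its pLKO values already differed, at 3.59 and 5.62 CPM per kb. LBR held 196 and 258, then 83 and 350 and fell by 0.47 (SE 0.15, adjusted p = 0.00325, edgeR), a direction that turned (0.05) with abundant-gene scaling. In shFABP4 1 LBR lay below pLKO with TMM (21.6 against 29.7 and 25.6). It lay above with abundant-gene scaling (81.7 against 16.9 and 14.5) and after background subtraction (79.6 against 17.9 and 15.4). The ratio of TM7SF2 to LBR fragments was 0.561 and 1.03 in pLKO, 0.904 in shFABP4 1 and 2.43 in shFABP4 2. With background subtracted it was 0.223 in shFABP4 1, where 62.55 of the 75 TM7SF2 fragments were expected from background, so the shFABP4 libraries then lay on opposite sides of pLKO. VPS51, which shares 18 exon bases with TM7SF2, held 78 and 147, then 203 and 1677 fragments, and its part in the TM7SF2 value was not tested. MSMO1, the sterol methyl oxidase before NSDHL, held 147 and 217, then 30 and 570 fragments. It rose from 16.98 ± 0.453 to 24.96 (0.56, SE 0.13, adjusted p = 0.000184), a call that ended in DESeq2 (adjusted p = 0.116) and after GC and length correction (0.22, adjusted p = 0.154). HSD17B7, the ketosteroid reductase after NSDHL, held 156 and 250, then 49 and 475, and did not pass (0.14, SE 0.14, adjusted p = 0.353, edgeR).

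**Figure D3:**
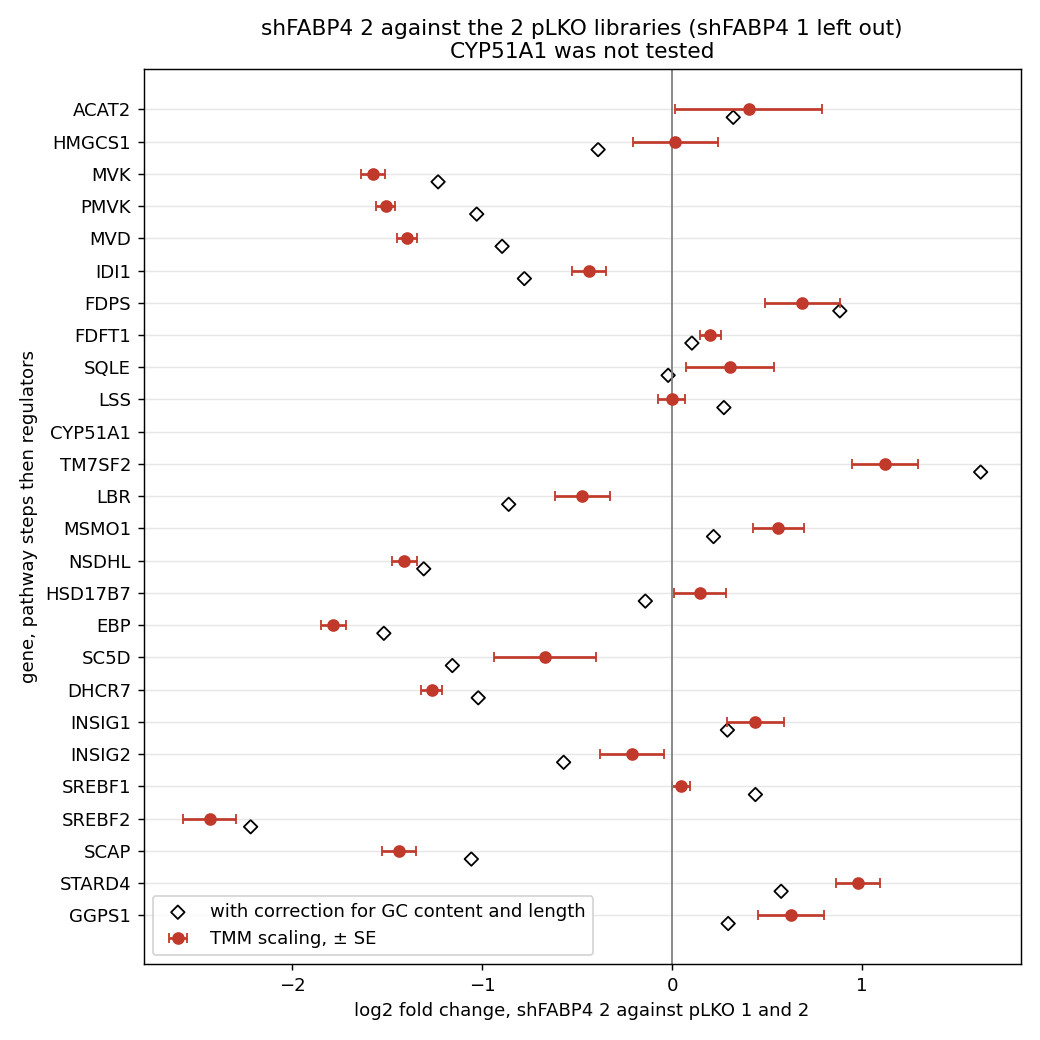
Log2 fold change of shFABP4 2 against the pLKO pair for each gene. Filled points show the TMM-scaled fit with its SE, and open diamonds the value after correction for GC content and length. SREBF2 lies furthest left (-2.43), TM7SF2 furthest right (1.12), and MVK, PMVK, MVD, NSDHL, EBP, DHCR7 and SCAP lie between -1.8 and -1.2 before correction.

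Among the regulators SREBF2 and SCAP fell in shFABP4 2 and SREBF1 did not pass. SREBF2 (chromosome 22, 41833079 to 41907307, plus strand) held 351 and 507 fragments in pLKO, then 267 and 169. It went from 40.1 ± 1.68 to 7.40 normalised CPM, 5.40-fold lower (log2 fold change -2.43, SE 0.14, edgeR adjusted p = 5.69e-27). In shFABP4 1 SREBF2 was on the other side, at 262.7 against 30.3 and 28.5 when scaled by abundant genes, and at 203.2 against 32.05 and 30.17 with the 123.6 expected background fragments subtracted. The shFABP4 libraries therefore lay on opposite sides of pLKO at that scaling, and under none of the 6 scalings did both lie on 1 side. SREBF1, whose products also drive fatty acid synthesis, held 1401 and 2232, then 630 and 3968 fragments (0.05, SE 0.05, adjusted p = 0.373), and it passed as higher with library totals (0.29), abundant-gene scaling (0.57), no filter (0.12) and GC and length correction (0.44). The ratio of SREBF1 to SREBF2 fragments was 3.99 and 4.40 in pLKO, 2.36 in shFABP4 1 (3.34 with background subtracted) and 23.5 in shFABP4 2. SCAP, the escort of SREBPs, held 476 and 755, then 184 and 482, and went from 57.0 ± 1.38 to 21.1 (-1.44, SE 0.09, adjusted p = 8.63e-25). In shFABP4 1, 115.4 of the 184 SCAP fragments were expected from background. There SCAP lay below pLKO with TMM but above it when scaled by abundant genes (181 against 41.1 and 42.5) and after subtraction (98.0 against 43.5 and 44.9), opposite to shFABP4 2.

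INSIG1, itself an SREBP target, held 133 and 171, then 58 and 440 fragments and rose by 0.44 (SE 0.15, adjusted p = 0.00834). INSIG2 held 91 and 165, then 50 and 233 and did not pass (-0.21, SE 0.17, adjusted p = 0.267, edgeR). Their ratio was 1.46 and 1.04 in pLKO and 1.16 and 1.89 in shFABP4, and 0.874 in shFABP4 1 with background subtracted. STARD4, a soluble sterol carrier, held 152 and 239, then 38 and 816 fragments and rose from 18.1 ± 0.326 to 35.7 (0.98, SE 0.12, adjusted p = 1.68e-11). In shFABP4 1 the side of STARD4 turned with the scaling. It was below pLKO with TMM (9.90 against 23.0 and 23.7), and above when scaled by abundant genes (37.4 against 13.1 and 13.4) and after background subtraction (25.6 against 13.9 and 14.2).

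GC content moved with direction. The median GC content was 57.1% in the 11 members that fell and 47.2% in the 7 that rose, and over all genes it was 54.99% in those that fell and 46.7% in those that rose. TM7SF2 (62.9% GC) rose, and IDI1, LBR and SC5D (37.4% to 41.6% GC) fell, against that trend. After correction for GC content and exon length, an alternative added after the data were seen, 12 members fell (33.9% of genes) and 5 rose (33.6% of genes). Of the 18 calls 14 stayed with the same direction, FDFT1, MSMO1, INSIG1 and GGPS1 no longer passed, and LSS, INSIG2 and SREBF1 newly passed. SREBF2 was then at -2.22, EBP at -1.52, NSDHL at -1.31, MVK at -1.23, PMVK at -1.03, DHCR7 at -1.02 and MVD at -0.89. Across the 8 fits without shFABP4 1, MVK, PMVK, MVD, NSDHL, EBP, DHCR7, SREBF2, SCAP and STARD4 kept their direction and passed in each.

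**Figure D4:**
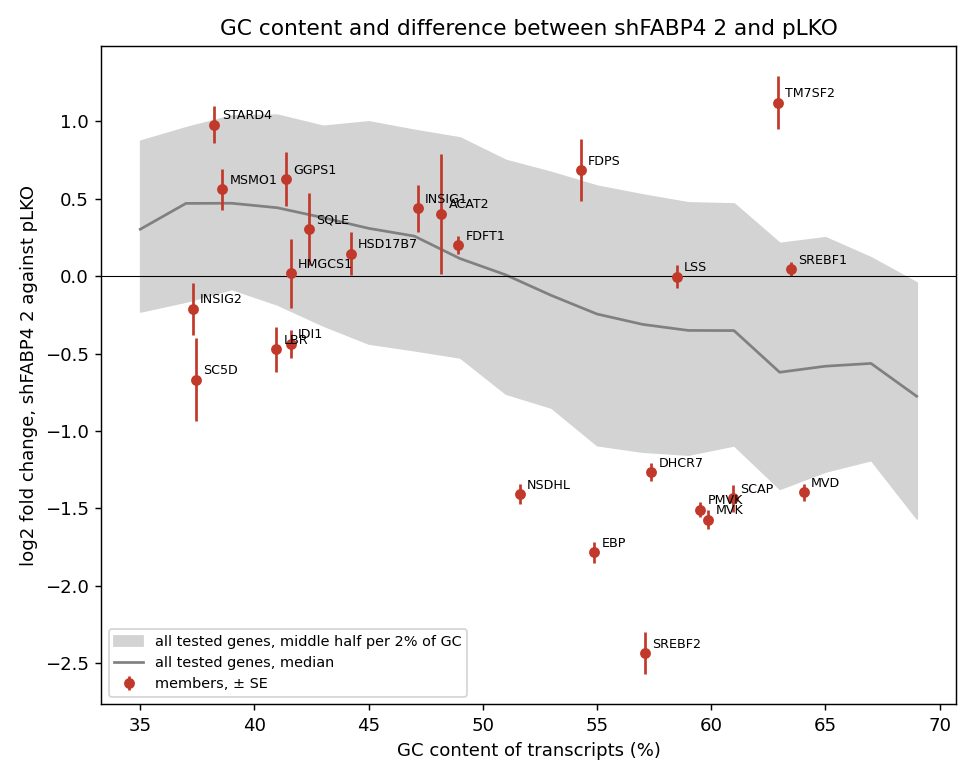
Log2 fold change of shFABP4 2 against pLKO (vertical) by GC content of the transcripts (horizontal, %). Points are the tested members with their SE, the line is the median of all tested genes and the band their middle range in steps of 2% GC. EBP, NSDHL, SREBF2 and DHCR7 are among the genes below the band, and TM7SF2 lies above it.

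Other genes of the pathway were followed as 4 lists, with counts of genes that passed without shFABP4 1, where 32.7% of all genes fell and 34.2% rose (33.9% and 33.6% after GC and length correction). With all 4 libraries no gene of any list passed in edgeR. Of 9 genes for acetyl-CoA supply and redox partners, 6 fell and 3 rose (median log2 fold change -1.07, against 0.04 over all genes), and after correction 6 fell and 2 rose (median -0.89, against 0.01). POR, the reductase that feeds electrons to CYP51A1 and SQLE, held 2218 and 3332, then 214 (110.9 expected from background) and 2023 fragments (-1.54, SE 0.05, adjusted p = 1.18e-43). CYB5R3, which reduces the cytochrome that serves MSMO1 and SC5D, held 3436 and 5422, then 272 (106.4 expected) and 4243 (-1.14, SE 0.04, adjusted p = 1.86e-39, edgeR). Both shFABP4 libraries held POR and CYB5R3 at lower CPM than pLKO (84.3 and 99.0 against 247 and 241 for POR). Scaled by abundant genes, shFABP4 1 was above pLKO for POR (211 against 191 and 187) and below for CYB5R3 (268 against 296 and 305). After background subtraction it was below for both (POR 146 against 202 and 198, CYB5R3 236 against 314 and 323). With all 4 libraries POR was at -1.97 (SE 0.73) and CYB5R3 at -1.77 (SE 0.93). The 3 genes of this list that rose without shFABP4 1 were the cytochrome genes CYB5B (log2 fold change 1.76) and CYB5A (0.25), and ACSS2 (0.23).

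Of 19 genes for SREBP processing, escort and sterol-stimulated degradation, 9 rose and 7 fell (median 0.17). After GC and length correction 5 rose and 8 fell, and the median turned to -0.12. RNF139, an endoplasmic reticulum ubiquitin ligase, held 143 and 221, then 48 and 1697 fragments (2.14, SE 0.09, adjusted p = 4.10e-35), and MBTPS1, the first protease to cut SREBPs, held 417 and 633, then 296 and 3032 (1.44, SE 0.06, adjusted p = 2.74e-33, edgeR). In the fit of all libraries they were at 1.32 (SE 1.04) and 0.98 (SE 0.62). In shFABP4 1 RNF139 lay below pLKO with TMM (12.5 against 21.7 and 21.9). It lay above with abundant-gene scaling (47.2 against 12.3 and 12.4). Of the 7 genes of this list that fell without shFABP4 1, ERLIN1 had the largest fall (log2 fold change -1.81). Of 14 genes of the isoprenoid branch and prenylation, 6 rose and 4 fell (median -0.01), and after correction 6 rose and 5 fell (median 0.14). RABGGTA and RABGGTB, subunits of the transferase that prenylates RAB proteins, went opposite ways (-0.94, SE 0.07, adjusted p = 4.96e-21, and 1.21, SE 0.13, adjusted p = 2.16e-13, edgeR). With all 4 libraries they were at -1.42 (SE 0.63) and 0.53 (SE 0.82), and in shFABP4 1 RABGGTA was above pLKO with abundant-gene scaling (101 against 67.98 and 68.4) and below it after subtraction (56.8 against 71.9 and 72.4). Of 22 genes for cholesterol trafficking, storage and efflux 17 were tested, of which 8 fell and 3 rose (median -0.31), and after correction 11 fell and 4 rose (median -0.44). STARD3, a sterol carrier of late endosomes, held 1950 and 2811, then 443 and 1578 fragments (-1.69, SE 0.05, adjusted p = 8.91e-44), and SCARB1, a lipoprotein receptor, held 787 and 1188, then 325 (243.6 expected) and 435 (-2.27, SE 0.08, adjusted p = 2.59e-39, edgeR). In shFABP4 1 both lay on the other side of pLKO when scaled by abundant genes (STARD3 436 against 168 and 158, SCARB1 320 against 67.9 and 66.8) and after subtraction (STARD3 477 against 178 and 167, SCARB1 115 against 71.9 and 70.7). STARD3 was at -1.49 (SE 0.63) and SCARB1 at -1.12 (SE 0.76) with all 4 libraries. The 3 genes of this list that rose without shFABP4 1 were MYLIP (log2 fold change 2.96), CAV1 (1.47) and NPC2 (0.21). MYLIP held 18 and 31, then 37 (22.0 expected from background) and 404 fragments. Both shFABP4 libraries held it above pLKO with TMM, abundant-gene scaling and background subtraction. With all 4 libraries it was at 2.48 (SE 0.70).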

How the data were processed

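Libraries of Daoy cells (2 pLKO, 2 shFABP4) were grouped by the sample labels. The members and lists were chosen with earlier results of these data known. Per the file headers, the authors deposited raw counts: featureCounts 2.0.0 summed paired fragments over GENCODE 38 exons by gene name, chimeric pairs excluded and strand ignored, so overlapping or antisense genes cannot be told apart. The submitters' processing notes name FastQC, HISAT, StringTie and GRCh38. Exon length in bases came from the same deposited table. Of 59384 readable gene names 63.6% matched GENCODE 29, the source of gene type and GC content.

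The gene test was edgeR 4.0.16 under R 4.3.3: TMM scaling, filterByExpr (at least 10 counts, 15 in total), then the two-sided quasi-likelihood F test with robust settings, tried on simulated data. Adjusted p-values are Benjamini-Hochberg over all genes, with a threshold of 0.05. Standard errors were derived from the F statistic. At 2 against 2 libraries no exact permutation test reaches p = 0.05. The background rate per kb of shFABP4 1 came from 2655 coding genes with no fragment elsewhere, by GC content. It was applied to the full exon length of each gene, shared bases included. Abundant genes (1918) were coding genes whose pLKO rate, at the depth of shFABP4 1, was at least 5 times that background. The 6 scalings were TMM, RLE, upper quartile, library totals, abundant genes, and abundant genes after subtraction of background. Between the pLKO libraries, chi-square per degree of freedom was 2.16, and both were kept. All 26 members were named, and from each other list the 2 genes with the smallest p and a mean of at least 20 counts. Alternatives were DESeq2 1.42.0, a replicate block, no filter, and each library left out.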

Additional observations from a re-analysis of the deposited data

How the results depend on the processing

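With all 4 libraries, 0 members passed in edgeR under every scaling, without the filter, with the replicate block, after GC and length correction or without either pLKO library, and 0 in DESeq2, while 69 genes in all passed without the filter, 695 in DESeq2 and 28 with the replicate block. Leaving out 1 library gave 0 to 23895 called genes, 0 to 23 called members, a member median of -1.79 to -0.0030, 12 to 23 members below and 1 to 11 above both pLKO libraries. With shFABP4 1 left out 10242 genes and 18 members passed, and with shFABP4 2 left out 23895 and 23, in fits that rest on the pLKO pair for their spread. The numbers tested differed, at 15301 genes without shFABP4 1 and 27830 without shFABP4 2, with 25 members in each. Most genes tested passed in both fits, so the member counts alone do not set the members apart. The median log2 fold change without shFABP4 1 was -0.0030 over the members and 0.04 over all genes tested. Without shFABP4 2 these medians lay on opposite sides, at -1.79 and 2.22. The replicate numbers come from the labels only, and the correlation of same-numbered deviations was 0.011 over 14735 genes. The median of the members was -0.0037 with upper-quartile scaling, 0.77 with library totals, 1.63 with abundant-gene scaling and 1.10 after background subtraction. Members below both pLKO libraries numbered 5 with library totals (1917 of 14735 genes), 3 with abundant-gene scaling (5.14% of genes) and 3 after subtraction (12.2%). Those above numbered 6 with upper-quartile scaling (4842 of 14735 genes) and 12 with library totals (7070 of 14735 genes). With abundant-gene scaling 14 were above (63.3% of genes), and after subtraction 14 (46.3%).

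Single members turned direction as follows, as log2 fold changes of all 4 libraries, and the cause was not tested. Upper-quartile scaling gave LSS 0.15, INSIG2 0.041, SREBF1 0.058 and SREBF2 0.0034. Library totals gave LSS 0.91, LBR 0.64, MSMO1 0.48, HSD17B7 0.51, SC5D 0.77, INSIG2 0.82, SREBF1 0.78, SREBF2 1.04 and SCAP 0.22. Abundant-gene scaling gave MVK 0.25, MVD 0.80, IDI1 0.60, FDFT1 0.59, LSS 1.87, LBR 1.63, MSMO1 1.17, HSD17B7 1.34, SC5D 1.81, DHCR7 0.58, INSIG2 1.79, SREBF1 1.70, SREBF2 2.20 and SCAP 1.28. Background subtraction gave MVD 0.87, IDI1 0.56, FDFT1 0.52, LSS 1.498, LBR 1.52, MSMO1 1.10, HSD17B7 1.04, DHCR7 0.34, INSIG2 1.76, SREBF1 1.74, SREBF2 1.75 and SCAP 0.45. No filter gave HMGCS1 -0.20, SQLE -0.068, INSIG1 -0.14 and GGPS1 -0.037, the replicate block STARD4 -0.11, and GC and length correction HMGCS1 -0.13 and STARD4 -0.047. Without 1 library the ranges of those that turned were HMGCS1 -0.72 to 0.018, SQLE -0.99 to 0.30, TM7SF2 -1.37 to 1.12, INSIG1 -1.48 to 0.44, STARD4 -2.44 to 0.98, GGPS1 -1.79 to 0.63, FDFT1 -3.48 to 0.20, MSMO1 -2.68 to 0.56, HSD17B7 -2.13 to 0.14 and SREBF1 -1.60 to 0.046.

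Without shFABP4 1, DESeq2 called 6142 genes and 10 members. Directions turned in LSS (0.015 with upper-quartile scaling, 0.24 with library totals, 0.52 with abundant-gene scaling, 0.075 without the filter, 0.27 after GC and length correction), INSIG2 (0.033 with library totals, 0.31 with abundant-gene scaling), IDI1 (0.088) and LBR (0.054) with abundant-gene scaling, HMGCS1 (-0.023 in DESeq2, -0.017 with RLE, -0.39 after correction), and after correction SQLE (-0.021) and HSD17B7 (-0.14). Fits without shFABP4 1 that also leave out a pLKO library have no residual degrees of freedom and were not run. Settings for the fits without shFABP4 1, and the GC and length correction, were chosen after seeing the data. Depth limits ACAT2, HMGCS1, SQLE, SC5D and FDPS, with under 100 fragments in each pLKO library.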
